A study of Mus musculus with 18 samples.

Results

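The diet contrast under exercise sets 3 liver libraries titled HF+Ex against 3 titled LF+Ex, 6 of the 18 libraries of the series, picked by those titles. Every library held polyA RNA of whole liver from a wild-type C57BL/6J mouse group that had been on its diet since 5 weeks of age, and liver was sampled at 62 weeks. LF+Ex mice had the LF diet with Ex, and HF+Ex mice the HF diet with Ex, so the Ex treatment was common to both groups and the diet set them apart. The labels give the abbreviations alone, which are read here from knowledge of such studies as low-fat diet (LF), high-fat diet (HF), exercise (Ex) and caloric restriction (CR). Where other groups are used they are LF and HF without further treatment and LF+CR and HF+CR, with 3 libraries each and the same strain and ages. Sex is not given, and nothing in the labels ties a library to a single animal, so p-values here speak for the spread among libraries, which may be technical. The contrast asks which transcripts differed between the diets in mice that had exercised.

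A diet rich in fat fills hepatocytes with triglyceride, which is stored in lipid droplets behind coat proteins, and the loaded liver draws in immune cells and can lay down collagen. Interferon-gamma, made by lymphocytes, raises guanylate binding proteins, immunity-related GTPases, immunoproteasome subunits and class II genes. In mice the pulses of growth hormone, acting through STAT5B, keep 1 set of liver genes higher in males and hold down another set that is higher in females.

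Levels are RPKM, in which reads are divided by transcript length and by the reads mapped in that library. No counts were used, so the depth behind each value is unknown. RPKM sums were 512495 to 561844 in LF+Ex and 529022 to 551976 in HF+Ex, and 9071 to 9400 and 9602 to 9825 genes reached 1 RPKM. The 10 most abundant RefSeq transcripts took 25.3% to 25.6% of the sum in LF+Ex and 27.2% to 27.4% in HF+Ex. Alb, the albumin gene, was listed at 0 in all 3 LF+Ex libraries and at 30803 to 33218 RPKM in HF+Ex and is left out of every test. The RPKM sums and the shares of the 10 most abundant transcripts include Alb, so the HF+Ex shares hold a value that is 0 in LF+Ex. LF+Ex 3 stood apart from its group. Across genes it correlated with HF+Ex 1, 2 and 3 at r = 0.974, 0.977 and 0.976 and with LF+Ex 1 and 2 at 0.977 and 0.976, whereas LF+Ex 1 and 2 correlated with each other at 0.987 and with HF+Ex at 0.956 to 0.966. LF+Ex 1 held some pancreatic RNA, with 14 markers of the exocrine pancreas summing to 44.3 RPKM against 6.09 to 11.7 RPKM in the other 5 libraries. Hepatocyte markers summed to 20447 to 26323 RPKM in LF+Ex and 17728 to 20783 RPKM in HF+Ex, the dominant cell type in every library. Of these markers 4 of 8 were called lower, where 1.0% of all genes were, and 5 skeletal muscle markers were at 0 throughout.

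Under Ex the HF diet went with more genes higher than lower. Of 26 gene lists, class II antigen presentation (5 of 6 tested) and interferon response (21 of 40) had the highest shares called higher, and genes of male mouse liver (8 of 26) the highest share called lower. The largest called differences were those of Cyp2b9, Lcn2, Ubd and Cidea upward and of Hsd3b5 and Mup7 downward. Of 10357 genes tested with limma, 531 (5.13%) passed an adjusted p of 0.05 by Benjamini-Hochberg, of which 427 were higher (4.12%) and 104 lower (1.0%) in HF+Ex, against 2301 at an unadjusted p under 0.05. The libraries of the 2 groups did not overlap for 2508 genes that were higher (24.2%) and 691 that were lower (6.67%). Differences are given below as HF+Ex minus LF+Ex of log2(RPKM + 1) ± SE from limma, n = 3 libraries per group, and means are ± SD. This scale understates the change of genes near 0. The median difference of all genes was 0.08. The balance of directions moved with the scaling and with the libraries fitted. In the deposited values 80.4% of calls were higher. The share was 60.0% of 753 calls with median-of-ratios scaling and 53.3% of 722 with quantile normalization. With totals made equal without the 10 most abundant genes it was 88.8% of 1051. On the deposited scale it was 87.4% of 871 with the libraries of the comparison alone and 60.4% of 652 without LF+Ex 3.

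**Figure D1:**
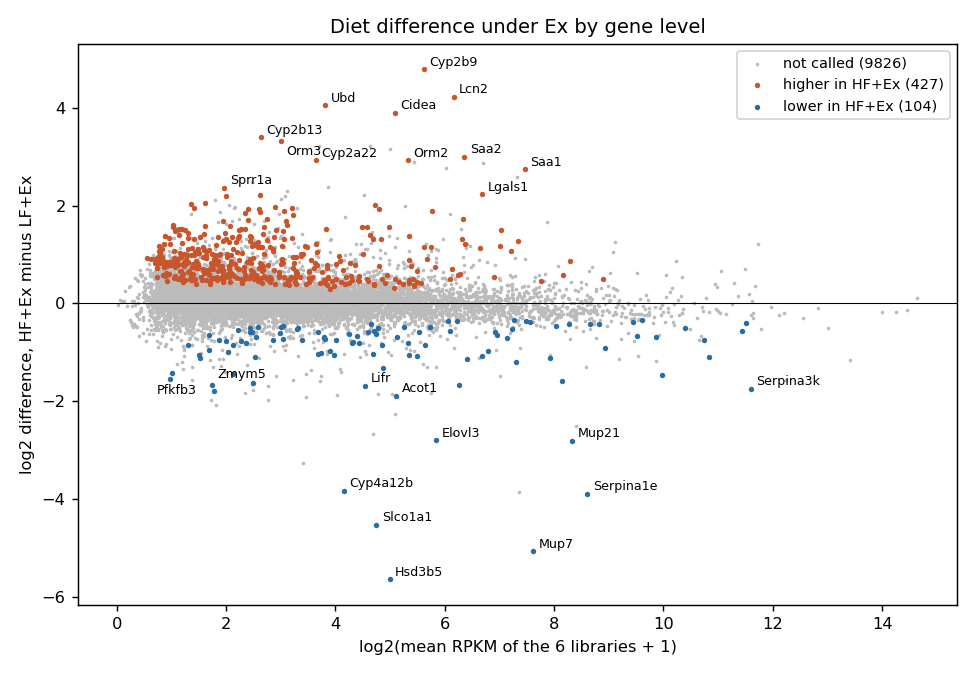
Each point is 1 of 10357 genes, with log2 of the mean RPKM of the 6 libraries plus 1 on the x axis and the log2 difference between HF+Ex and LF+Ex on the y axis. The 427 genes called higher (orange) lie mostly at low levels, the 104 called lower (blue) reach -5.64 for Hsd3b5, and the named points are the 12 largest differences in each direction among called genes with separate groups and a group mean of 2 RPKM or more, predicted genes left out.

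LF+Ex 3 lay nearest to HF+Ex among the LF+Ex libraries in 328 of the 531 called genes (61.8%), against 104 for LF+Ex 1 and 107 for LF+Ex 2, ties counted for both. The count of calls depended on single libraries: it was 46 without LF+Ex 1, 77 without LF+Ex 2, 652 without LF+Ex 3, and 103, 101 and 58 without HF+Ex 1, 2 and 3. It was 33 without the 3 libraries with the highest sums of pancreas markers (LF+CR 1, LF+Ex 1 and HF+CR 1) and 1112 without the 2 with the most bile duct RNA (LF 2 and HF+CR 3). HF+CR 2, which was kept, had a pancreas marker sum of 38.6 RPKM with 12 of 14 markers at 0. LF+Ex 1 had 44.3 RPKM with 1 of 14 at 0. All 531 genes kept their direction when each of the 6 libraries was left out, and 37 of them, 32 higher and 5 lower, also kept their call each time. Those among them that are named below are Cyp2b9, Cyp2b13, Cyp2a22, Slc22a27, Cyp4a12b, Cyp4a32, Orm3, Steap4, Samd9l, Gbp2, Cxcl1, Postn, Fabp4 and Lrat. Every other gene called below lost its call without at least 1 of the 6 libraries.

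Interferon-response genes held more calls than any other of the 26 lists. Of 42 listed, 40 passed the filter on low values, and of these 21 rose in HF+Ex and none fell, against 4.12% of all genes called higher, and the median difference of the list was 0.91. Gbp2, a guanylate binding protein that interferon-gamma induces, was at 0.938, 1.29 and 1.29 RPKM in LF+Ex 1, 2 and 3 and at 8.18, 5.41 and 8.64 RPKM in HF+Ex 1, 2 and 3. No HF+Ex library came near the LF+Ex range, and the difference was 1.93 ± 0.30 (adjusted p = 0.00547). The promoter windows of Gbp2 and of Ifit1, an interferon-induced protein that binds foreign RNA, are shown because both hold the letters of the interferon-stimulated response element. They are RefSeq windows on GRCm38.p6, plus strand, from 250 bases before to 50 after the start, and capitals mark matches to the core of the element, taken as 2 copies of TTTC with 2 bases of any kind between them and searched on both strands.
Gbp2, chr3:142620413-142620712: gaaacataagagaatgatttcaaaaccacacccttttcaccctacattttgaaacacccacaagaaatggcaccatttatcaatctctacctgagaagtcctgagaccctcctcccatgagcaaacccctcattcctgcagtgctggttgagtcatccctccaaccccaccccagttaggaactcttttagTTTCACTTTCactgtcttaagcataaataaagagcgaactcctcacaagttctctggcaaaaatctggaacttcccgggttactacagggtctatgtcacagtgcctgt
Ifit1, chr19:34640639-34640938: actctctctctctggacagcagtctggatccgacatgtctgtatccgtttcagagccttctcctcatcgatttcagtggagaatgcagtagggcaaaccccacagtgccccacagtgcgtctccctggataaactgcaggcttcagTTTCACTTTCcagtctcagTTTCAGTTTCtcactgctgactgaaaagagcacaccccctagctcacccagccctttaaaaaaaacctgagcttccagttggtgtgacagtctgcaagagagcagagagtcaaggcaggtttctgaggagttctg
The Gbp2 window held 1 match and the Ifit1 window 2. Of the 31 interferon-response genes with a window, 14 held a match (45.2%), against 34 of 342 windows of genes called higher (9.94%) and 3 of 87 of genes called lower (3.45%). The share was 3.07% for tested genes and 3.49% for all 27025 windows. Members of the interferon list that were called higher also count among the 342, so the 45.2% and the 9.94% are not independent. TTCNNNGAA, the letters of the STAT site, stood in 29.0% of the interferon windows and 29.2% of those of the acute-phase list. It stood in 15.8% (3 of 19) and 12.5% (2 of 16) of those of the male and female liver lists, shares that rest on few windows. For genes called higher the share was 7.6%, for genes called lower 6.9%, for tested genes 6.82% and for all windows 8.47%. None of the 4 class II windows held either motif. A match describes the letters and is not a measured site.

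The interferon-induced genes that rose covered sensors, effectors and antigen processing. Samd9l, an interferon-induced antiviral factor, was at 0.774, 0.955 and 1.73 RPKM in LF+Ex 1, 2 and 3 and at 3.8, 5.48 and 4.95 RPKM in HF+Ex 1, 2 and 3. All 3 HF+Ex libraries lay above the LF+Ex range, with a difference of 1.43 ± 0.21 (adjusted p = 0.00475). Cxcl9, the chemokine that draws CXCR3-bearing T cells, was at 1.24, 1.72 and 3.1 RPKM in LF+Ex 1, 2 and 3 and at 11.7, 6.77 and 14.1 RPKM in HF+Ex 1, 2 and 3. LF+Ex 3 was its highest LF+Ex library and still below HF+Ex 2, the lowest of HF+Ex (1.97 ± 0.35; adjusted p = 0.00963). Ubd, a ubiquitin-like protein induced by interferon-gamma and tumour necrosis factor, was at 0.0338, 0.135 and 1.83 RPKM in LF+Ex 1, 2 and 3 and at 40.1, 17.9 and 18.2 RPKM in HF+Ex 1, 2 and 3. It was near 0 in LF+Ex 1 and 2, and its difference was 4.05 ± 0.92 (adjusted p = 0.0258). Gbp7 rose from 1.76 ± 0.319 to 4.93 ± 0.883 RPKM, and Gbp3 and Gbp6 differed by 1.36 and 1.59. The immunity-related GTPases Irgm1, Iigp1, Igtp, Ifi47 and Tgtp1 rose by 0.83, 0.88, 0.97, 1.49 and 1.34. Ifit1 rose from 1.7 ± 0.477 to 5.35 ± 0.119 RPKM, with 1.25 for its difference, and Ifit2, Ifit3, Isg15, Oasl1, Rtp4 and Xaf1 rose by 0.80 to 1.52. Psmb9, an immunoproteasome subunit, rose from 13.9 ± 3.02 to 35.4 ± 2.76 RPKM, and Tap1, which pumps peptides into the endoplasmic reticulum, rose from 5.85 ± 1.0 to 12.8 ± 1.73 RPKM. Cxcl10 had the largest difference of the list, 2.30, but did not pass (adjusted p = 0.0589), and Irf7, Irf9 and Stat2 lay at 0.24, -0.32 and 0.11. Gbp and Tgtp copies are alike enough to share reads, so the split within these families is uncertain.

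Of 7 class II antigen presentation genes listed, 6 were tested and 5 rose, against 4.12% of all genes called higher, with a median of 1.77. H2-Eb1, a class II beta chain, was at 8.75, 9.02 and 14.4 RPKM in LF+Ex 1, 2 and 3 and at 49.9, 36.9 and 42.6 RPKM in HF+Ex 1, 2 and 3. The lowest HF+Ex library was well above the highest LF+Ex library (1.93 ± 0.47; adjusted p = 0.0323). H2-DMb1 and H2-DMa, which load peptide onto class II, went from 1.61 ± 0.23 to 6.5 ± 0.912 RPKM and, in the same order, from 1.44 ± 0.142 to 4.84 ± 0.795 RPKM. Cd74, the invariant chain, rose from 36.5 ± 3.84 to 123 ± 10.2 RPKM, and H2-Aa, an alpha chain, from 22.4 ± 4.68 to 84.6 ± 12.6 RPKM. H2-Ab1 went from 29.3 ± 5.01 to 106 ± 18 RPKM and did not pass (adjusted p = 0.0548). Lymphocyte markers, of which 3 of 12 could be tested, moved the same way: their sum was 1.15 to 2.39 RPKM in LF+Ex and 4.56 to 8.96 RPKM in HF+Ex, and Nkg7 of natural killer and cytotoxic T cells was called (1.11). The macrophage marker sum was 90.7 to 121 RPKM against 136 to 196 RPKM, with 0 of 8 members called and a median of -0.02. Their part in the interferon and class II differences was not tested, and in whole liver more cells of a type and more RNA per cell cannot be told apart. Without LF+Ex 1, LF+Ex 2 and HF+Ex 1, 2 and 3 in turn the interferon list had 2, 5, 7, 8 and 2 calls and the class II list had none, and without LF+Ex 3 they had 21 and 4. The medians of the lists without the pancreas libraries were 0.90 and 1.75, with 2 and 0 calls. Of those libraries only LF+Ex 1 is in the contrast, so these medians are the same as without LF+Ex 1 alone.

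**Figure D2:**
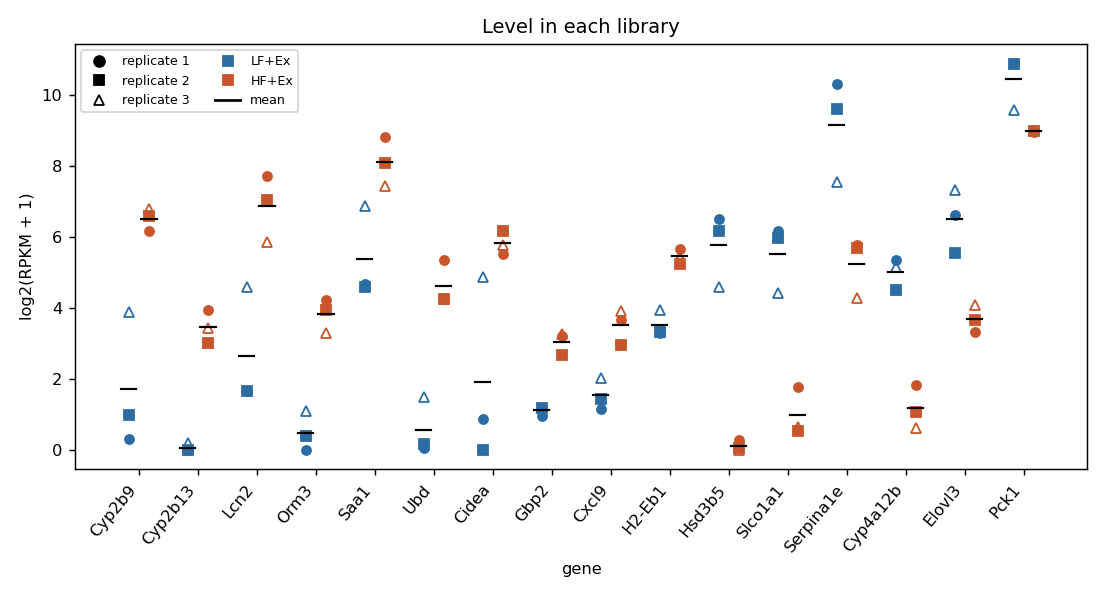
Level of 16 genes in each library as log2(RPKM + 1), with LF+Ex in blue and HF+Ex in orange, a marker shape for each replicate and a black line at the mean. LF+Ex 3 (open triangle) lies closer to HF+Ex than LF+Ex 1 and 2 for Cyp2b9, Lcn2, Saa1, Ubd and Cidea, as in the values given for them, while for Gbp2 LF+Ex 3 lies level with LF+Ex 2 at 1.29 RPKM.

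Chemokines and inflammatory genes rose for 6 of the 20 members tested out of 30 listed, and none fell. Of all genes 4.12% were called higher, and the median of the list was 1.32. Cxcl1, a neutrophil attractant, was at 1.67, 3.8 and 2.63 RPKM in LF+Ex 1, 2 and 3 and at 21.1, 9.21 and 10.9 RPKM in HF+Ex 1, 2 and 3. HF+Ex 1 was the highest and the groups did not overlap (1.95 ± 0.30; adjusted p = 0.00547). Ccl2, which recruits monocytes, was at 0, 0 and 0.263 RPKM in LF+Ex 1, 2 and 3 and at 4.48, 2.58 and 2.69 RPKM in HF+Ex 1, 2 and 3, with a difference of 1.95 ± 0.47 (adjusted p = 0.0317). Ccl6 rose from 3.13 ± 0.39 to 9.6 ± 1.05 RPKM and Cybb, the catalytic subunit of the phagocyte oxidase, from 1.67 ± 0.381 to 5.65 ± 0.242 RPKM. Itgax, the CD11c integrin of dendritic cells and recruited macrophages, rose by 1.21. Mmp12, macrophage elastase, was at 0.00721, 0 and 0.536 RPKM in LF+Ex 1, 2 and 3 and at 5.0, 4.47 and 2.41 RPKM in HF+Ex 1, 2 and 3 (2.06 ± 0.51; adjusted p = 0.0323). Lgals1, galectin-1, was at 16.8, 18.2 and 106 RPKM in LF+Ex 1, 2 and 3 and at 133, 192 and 144 RPKM in HF+Ex 1, 2 and 3. LF+Ex 3 was far above LF+Ex 1 and 2 and close to the lowest HF+Ex library (2.23 ± 0.59; adjusted p = 0.0415). Ccl5, Lgals3, Gpnmb and Trem2 had differences of 2.20, 2.13, 2.11 and 1.95 and did not pass.

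Markers of resident Kupffer cells were not called. Clec4f was at 33.2, 28 and 37.7 RPKM in LF+Ex 1, 2 and 3 and at 35.9, 43 and 35 RPKM in HF+Ex 1, 2 and 3, ranges that overlap, and its difference was 0.20 ± 0.25 (adjusted p = 0.673). Timd4, Marco and Cd163, also of resident cells, had differences of -0.62, -1.31 and -1.24, and Adgre1, Csf1r and Lyz2 of 0.92, 0.88 and 1.32, none of them called. Cd163 was at 2.05, 1.82 and 2.05 RPKM in LF+Ex 1, 2 and 3 and at 0.0303, 0.919 and 0.00871 RPKM in HF+Ex 1, 2 and 3. The neutrophil genes S100a8 and S100a9 had values of 1.66 and 1.61 without passing. Their summed list level was 1.36 to 2.39 RPKM in LF+Ex and 7.82 to 13.6 RPKM in HF+Ex, and Mpo, also on that list, was at 0. What these marker levels add to the inflammatory differences was not tested. The chemokine list had 1 call without LF+Ex 1, LF+Ex 2 or any 1 of the HF+Ex libraries, and 5 without LF+Ex 3.

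Matrix genes rose for 5 of the 26 members tested out of 31 listed, against 4.12% of all genes, with a median of 0.75. Of the 26, 21 were higher in HF+Ex without overlap between the groups, where 24.2% of all genes were so. Postn, the matricellular protein periostin, was at 1.36, 1.2 and 1.85 RPKM in LF+Ex 1, 2 and 3 and at 4.23, 4.17 and 3.45 RPKM in HF+Ex 1, 2 and 3. The LF+Ex libraries were all under 2 RPKM and the HF+Ex libraries all above 3 RPKM (1.01 ± 0.17; adjusted p = 0.00799). Tgfb1, the cytokine that drives collagen production in stellate cells, rose from 2.74 ± 0.269 to 5.26 ± 0.513 RPKM, and Col14a1 and Col5a1 rose by 0.82 and 0.55. The main fibrillar collagens Col1a1, Col1a2 and Col3a1 had larger differences, 1.86, 1.5 and 1.83, and did not pass. Col1a1 was at 0.433, 0.567 and 0.685 RPKM in LF+Ex 1, 2 and 3 and at 3.68, 7.13 and 3.73 RPKM in HF+Ex 1, 2 and 3, without overlap (adjusted p = 0.0732). Stellate and fibroblast markers summed to 61.4 to 66.9 RPKM in LF+Ex and 109 to 134 RPKM in HF+Ex, and 2 of 9 were called: Lrat, the retinol esterase of stellate cells, at 2.53, 2.11 and 2.1 RPKM in LF+Ex 1, 2 and 3 and at 4.46, 4.95 and 4.67 RPKM in HF+Ex 1, 2 and 3 (0.81 ± 0.13; adjusted p = 0.00547), and Rgs5 of pericytes (0.78). Acta2, the actin of activated stellate cells, lay at -0.16. Bile duct markers summed to 19.2 to 28.5 RPKM in LF+Ex and 33.0 to 56.7 RPKM in HF+Ex, most of it Spp1, with 0 of 4 called and Cftr at 0. How far these cells enter the matrix differences was not tested. Without LF+Ex 1, LF+Ex 2 or any 1 of the HF+Ex libraries 1 matrix gene passed, and 3 did without LF+Ex 3.

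Acute-phase genes split. Of 30 listed and tested, 6 rose and 4 fell, where 4.12% and 1.0% of all genes did, with a median of 0.24. Orm3, an orosomucoid, was at 0, 0.307 and 1.13 RPKM in LF+Ex 1, 2 and 3 and at 17.7, 14.4 and 8.77 RPKM in HF+Ex 1, 2 and 3. LF+Ex was near 0 and HF+Ex at least near 9 RPKM, with a difference of 3.33 ± 0.41 (adjusted p = 0.0022). Lcn2, lipocalin 2, which binds bacterial siderophores, was at 2.17, 2.15 and 23.3 RPKM in LF+Ex 1, 2 and 3 and at 209, 131 and 56.7 RPKM in HF+Ex 1, 2 and 3. LF+Ex 3 lay well above LF+Ex 1 and 2 but below HF+Ex 3, and the difference was 4.23 ± 1.06 (adjusted p = 0.0357). Saa1, a serum amyloid, was at 24.3, 23.1 and 116 RPKM in LF+Ex 1, 2 and 3 and at 448, 271 and 173 RPKM in HF+Ex 1, 2 and 3 (2.74 ± 0.60; adjusted p = 0.0236). LF+Ex 3 at 116 RPKM and HF+Ex 3 at 173 RPKM were the nearest libraries of the groups. Saa2 rose from 22.6 ± 24.1 to 139.5 ± 52.9 RPKM and Orm2 from 9.46 ± 8.38 to 68.4 ± 30.3 RPKM. Steap4, a metalloreductase induced in inflammation, rose from 29.4 ± 4.84 to 66.8 ± 11.9 RPKM (1.15 ± 0.19; adjusted p = 0.00671).

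The acute-phase genes that fell were abundant plasma proteins of hepatocytes, whose marker sum was lower in 2 of 3 HF+Ex libraries than in every LF+Ex library. That sum includes Fgb, so it is not independent of the fall of Fgb, and its part in these falls was not tested. The 3 fibrinogen chains fell together, Fga from 889 ± 143 to 567 ± 129.8 RPKM, Fgb from 3304 ± 323 to 2231 ± 377 RPKM and Fgg from 1571 ± 37.1 to 1120.5 ± 212 RPKM, with differences of -0.66, -0.58 and -0.50 (adjusted p = 0.0285, 0.0235 and 0.0434). Serpina3k, a serine protease inhibitor more abundant in male mouse liver, was at 6437, 4671 and 3275 RPKM in LF+Ex 1, 2 and 3 and at 1429.9, 1563 and 1151 RPKM in HF+Ex 1, 2 and 3 (-1.75 ± 0.36; adjusted p = 0.021). Haptoglobin (Hp) at 0.70, hepcidin (Hamp) at -0.30 and Crp at -0.52 did not pass. Of the 30 genes 2, 2, 8, 2, 5 and 3 were called without LF+Ex 1, 2, 3 and HF+Ex 1, 2 and 3. Saa1 and Saa2, and Orm2 and Orm3, may share reads, so the split within each pair is uncertain.

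**Figure D3:**
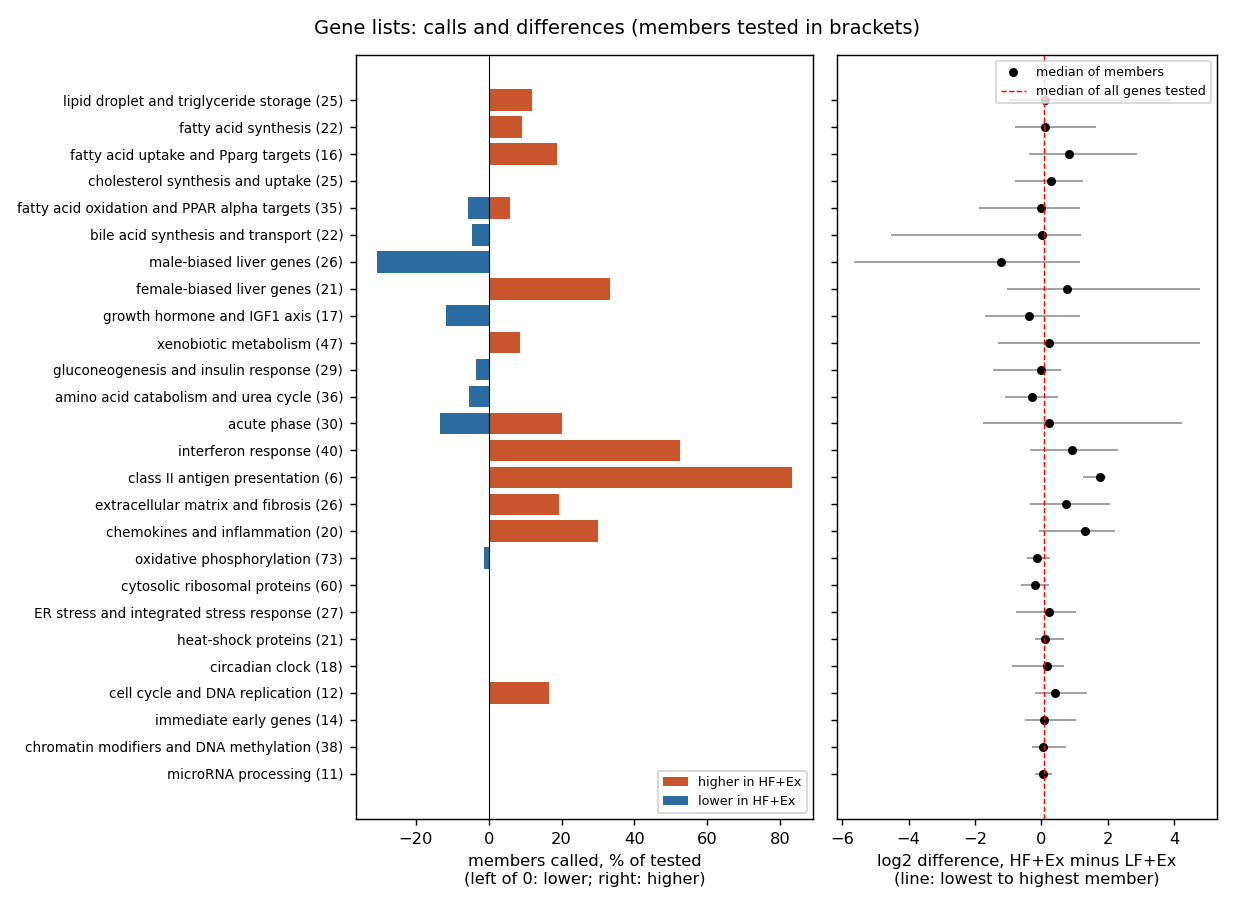
For each of 26 gene lists, with the number of members tested in brackets, the left panel gives the percent of tested members called higher (orange, right of 0) and lower (blue, left of 0) and the right panel the median (dot) and range (line) of the log2 differences, with the median of all genes at 0.08 as a dashed line. Class II (5 of 6) and interferon response (21 of 40) have the highest shares called higher, and male-biased liver genes (8 of 26) the highest share called lower.

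A list of 29 genes of female mouse liver had 21 that could be tested, and of these 7 rose and none fell. Of all genes 4.12% were called higher, and the median of the list was 0.77. The largest positive difference of any named gene was that of Cyp2b9 (NM_010000, chromosome 7, 26173350 to 26210661, the gene span in RefSeq on GRCm38.p6), a cytochrome P450 of female liver, which was at 0.244, 0.969 and 13.7 RPKM in LF+Ex 1, 2 and 3 and at 70.6, 94.3 and 109 RPKM in HF+Ex 1, 2 and 3. LF+Ex 3 was above LF+Ex 1 and 2 but below every HF+Ex library (4.78 ± 0.74; adjusted p = 0.00547). Its neighbour Cyp2b13 (NM_007813, chromosome 7, 26061388 to 26096197) was at 0, 0 and 0.147 RPKM in LF+Ex 1, 2 and 3 and at 14.3, 7.12 and 9.86 RPKM in HF+Ex 1, 2 and 3, with no overlap (3.40 ± 0.40; adjusted p = 0.00194). The promoter windows of both genes are printed to show how alike they are, with capitals at the bases that differ. The start on which each window is built lies inside the gene span, not at its first base.
Cyp2b9, chr7:26173159-26173458: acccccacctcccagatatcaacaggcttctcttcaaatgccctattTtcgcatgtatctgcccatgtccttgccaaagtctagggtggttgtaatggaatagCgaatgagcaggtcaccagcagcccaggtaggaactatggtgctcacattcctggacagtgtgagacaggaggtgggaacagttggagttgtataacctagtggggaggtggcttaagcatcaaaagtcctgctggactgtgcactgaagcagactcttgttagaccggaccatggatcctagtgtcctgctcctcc
Cyp2b13, chr7:26061245-26061544: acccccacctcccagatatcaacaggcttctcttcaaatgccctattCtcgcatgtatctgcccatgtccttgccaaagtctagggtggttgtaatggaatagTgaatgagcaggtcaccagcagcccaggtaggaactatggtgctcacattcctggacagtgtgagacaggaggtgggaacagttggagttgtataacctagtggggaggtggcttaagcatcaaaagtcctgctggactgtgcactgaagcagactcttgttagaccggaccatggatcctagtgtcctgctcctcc
The windows, on the plus strand of GRCm38.p6 from RefSeq, were identical at 298 of 300 positions (99.3%), with T48C and C104T as the differences, the Cyp2b9 base first and positions counted from 1 at the 5′ end. Reads of the 2 transcripts could be split between them in unknown ways. Cyp2b10, the Cyp2b gene that the receptor CAR induces, was at 0.0655, 0.225 and 1.4 RPKM in LF+Ex 1, 2 and 3 and at 3.97, 1.98 and 4.69 RPKM in HF+Ex 1, 2 and 3 (1.58 ± 0.40; adjusted p = 0.0351).

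Other genes of female liver that rose were transporters and oxidases. Slc22a27, an organic anion transporter, was at 0.0718, 0.708 and 0.487 RPKM in LF+Ex 1, 2 and 3 and at 3.82, 6.2 and 6.57 RPKM in HF+Ex 1, 2 and 3. Every HF+Ex library exceeded the highest LF+Ex library (2.20 ± 0.36; adjusted p = 0.00653). Slc22a29 rose by 1.44, Hao2, a peroxisomal hydroxy acid oxidase, by 1.55, and Vldlr, the receptor for very-low-density lipoprotein, from 0.374 ± 0.177 to 1.34 ± 0.30 RPKM. Cyp2a22, a P450 outside the list, was at 1.03, 0.825 and 5.15 RPKM in LF+Ex 1, 2 and 3 and at 18.7, 19.4 and 23.8 RPKM in HF+Ex 1, 2 and 3 (2.93 ± 0.46; adjusted p = 0.00548). Cux2, a transcription factor of female liver, was under 0.1 RPKM in all 6 libraries, with a difference of -0.03. Cyp2a4 lay at 3.22 and Cyp17a1 at -1.03, and neither passed.

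The list of male mouse liver had 26 of its 30 genes tested, of which 8 fell and none rose, against 1.0% of all genes called lower, and the median was -1.21. Hsd3b5, a steroid dehydrogenase of male liver, was at 90.4, 71.3 and 23.2 RPKM in LF+Ex 1, 2 and 3 and at 0.217, 0.0503 and 0 RPKM in HF+Ex 1, 2 and 3. It was near 0 in HF+Ex and was lowest in LF+Ex 3 within its group (-5.64 ± 1.32; adjusted p = 0.0273). Slco1a1, a transporter of bile acids and steroid sulfates, was at 70.1, 61.4 and 20.3 RPKM in LF+Ex 1, 2 and 3 and at 2.41, 0.45 and 0.564 RPKM in HF+Ex 1, 2 and 3 (-4.52 ± 0.80; adjusted p = 0.00957). Cyp4a12b, a fatty acid hydroxylase, was at 39.7, 21.8 and 34.8 RPKM in LF+Ex 1, 2 and 3 and at 2.53, 1.12 and 0.541 RPKM in HF+Ex 1, 2 and 3. Here LF+Ex 3 was not the nearest library, and the difference was -3.83 ± 0.55 (adjusted p = 0.00402). Serpina1e, an alpha-1-antitrypsin copy, was at 1253, 773 and 185 RPKM in LF+Ex 1, 2 and 3 and at 53.9, 50.9 and 18.3 RPKM in HF+Ex 1, 2 and 3, so that LF+Ex spread more widely than the gap to HF+Ex 1 (-3.89 ± 0.97; adjusted p = 0.0345).

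Mup7, a major urinary protein, was at 518, 324 and 287 RPKM in LF+Ex 1, 2 and 3 and at 36.2, 7.9 and 2.84 RPKM in HF+Ex 1, 2 and 3 (-5.07 ± 1.2; adjusted p = 0.0289). Mup21 fell from 561 ± 105 to 80.4 ± 21.8 RPKM, Elovl3, an elongase of very long fatty acids, from 101 ± 56.8 to 12.2 ± 3.42 RPKM, and C8b, a chain of complement component 8, from 115 ± 28 to 35.6 ± 7.37 RPKM. Mup20 was at 13873, 17743 and 13665 RPKM in LF+Ex 1, 2 and 3 and at 7942, 7198 and 5326 RPKM in HF+Ex 1, 2 and 3 and did not pass despite groups that do not overlap (-1.16 ± 0.44; adjusted p = 0.131). Cyp4a12a at -1.84, Cyp7b1 at -0.98 and C6 at -1.24 also did not pass, and Bcl6, a repressor of female genes, was the 1 member with a difference over 1, at 1.16. Within the growth hormone and IGF1 list Lifr, the receptor of leukaemia inhibitory factor, was at 44.2, 32.6 and 27.1 RPKM in LF+Ex 1, 2 and 3 and at 9.09, 11.3 and 9.36 RPKM in HF+Ex 1, 2 and 3 (-1.69 ± 0.34; adjusted p = 0.0189), and Igfbp2, an IGF binding protein, was at 546, 531 and 211 RPKM in LF+Ex 1, 2 and 3 and at 146, 110.1 and 137 RPKM in HF+Ex 1, 2 and 3 (-1.59 ± 0.43; adjusted p = 0.0433). Ghr, Stat5b and Igf1 lay at 0.20, 0.12 and -0.12. Mup, Serpina1, Cyp4a12 and Slc22a copies may share reads. Leaving out LF+Ex 1, 2 and 3 and HF+Ex 1, 2 and 3 in turn gave 1, 2, 9, 3, 2 and 1 male-biased and 3, 3, 7, 4, 4 and 3 female-biased calls.

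**Figure D4:**
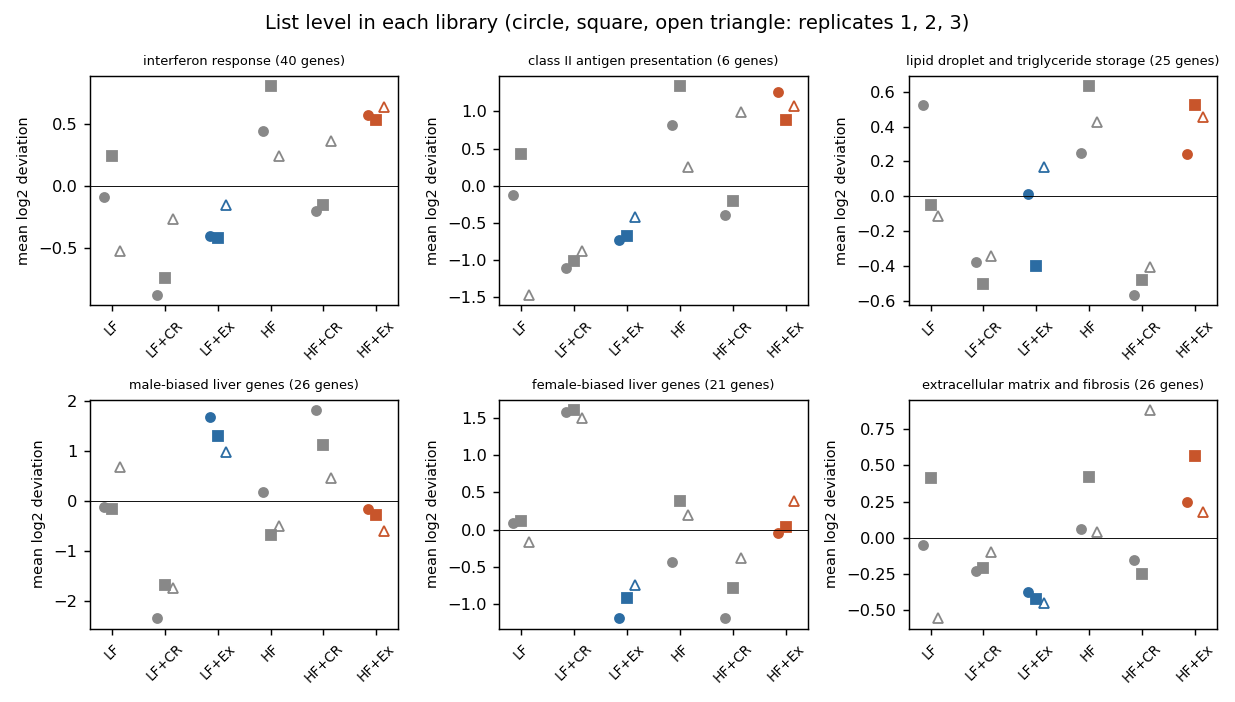
Mean deviation of the tested members of 6 gene lists from their mean over the 18 libraries, on the log2(RPKM + 1) scale, for each library of the 6 groups (circle, square and open triangle for replicates 1, 2 and 3). LF+Ex (blue) lies at 0.99 to 1.68 for male-biased and -1.2 to -0.75 for female-biased genes, outside the LF libraries at -0.16 to 0.69 and -0.17 to 0.12, and HF+Ex (orange) lies at -0.60 to -0.15 and -0.05 to 0.38.

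Levels of the lists in the groups without Ex are given as a description, with no test. The male-biased list averaged 0.99 to 1.68 in LF+Ex, above the LF range of -0.16 to 0.69, whereas HF+Ex at -0.60 to -0.15 fell within the HF range of -0.67 to 0.18. Slco1a1 was at 17.7 ± 19.6 RPKM in LF, 50.6 ± 26.6 in LF+Ex, 1.36 ± 1.26 in HF and 1.14 ± 1.1 in HF+Ex. Interferon-response genes averaged -0.52 to 0.24 in LF, -0.42 to -0.15 in LF+Ex, 0.24 to 0.81 in HF and 0.54 to 0.64 in HF+Ex, so that both Ex groups spread less than their counterparts without Ex.

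Lipid droplet genes rose for 3 of the 25 tested out of 26 listed, against 4.12% of all genes called higher, with a median of 0.11, near that of all genes. Cidea, which fuses droplets in fat cells and in fatty liver, was at 0.85, 0 and 28.2 RPKM in LF+Ex 1, 2 and 3 and at 44.9, 71.1 and 53.3 RPKM in HF+Ex 1, 2 and 3. LF+Ex 3 at 28.2 RPKM was set apart from the other LF+Ex libraries, which were under 1 RPKM (3.90 ± 1.0; adjusted p = 0.0382). Mogat1, a monoacylglycerol acyltransferase, was at 0.776, 0 and 3.98 RPKM in LF+Ex 1, 2 and 3 and at 5.19, 8.35 and 6.13 RPKM in HF+Ex 1, 2 and 3, again with LF+Ex 3 the highest of its group (1.85 ± 0.44; adjusted p = 0.0307). Fabp4, the fatty acid carrier of fat cells and macrophages, was at 12.2, 8.67 and 12.4 RPKM in LF+Ex 1, 2 and 3 and at 33.5, 41.4 and 28.6 RPKM in HF+Ex 1, 2 and 3, and LF+Ex 3 was level with LF+Ex 1 (1.55 ± 0.25; adjusted p = 0.00653). Cidec, a partner of Cidea, was at 8.76, 2.01 and 28.9 RPKM in LF+Ex 1, 2 and 3 and at 50, 93.6 and 72.2 RPKM in HF+Ex 1, 2 and 3 and did not pass (2.88 ± 0.82; adjusted p = 0.0549). Plin4, a droplet coat protein, was at 11.1, 4.38 and 21.5 RPKM in LF+Ex 1, 2 and 3 and at 14.6, 23.9 and 22.3 RPKM in HF+Ex 1, 2 and 3, with overlap (0.88 ± 0.51; adjusted p = 0.328). Plin2, the main droplet coat of liver, lay at 0.40 and Plin5 at -0.59. Without LF+Ex 3 the list had 4 calls, and without any other 1 of the 6 libraries it had 1. The adipocyte markers Adipoq, Lep, Retn and Plin1 did not reach the filter on low values, and the 6 adipocyte markers, mostly Fabp4, summed to 8.71 to 14.9 RPKM in LF+Ex and 31.2 to 48.5 RPKM in HF+Ex. Their part in the difference of Fabp4 was not tested.

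Genes of fatty acid uptake and Pparg targets had a median of 0.82 over 16 members. Of these Mogat1, Fabp4 and Vldlr rose, where 4.12% of all genes were called higher. Pparg itself was at 0.307, 2.31 and 2.1 RPKM in LF+Ex 1, 2 and 3 and at 3.97, 3.17 and 3.5 RPKM in HF+Ex 1, 2 and 3 (0.93 ± 0.43; adjusted p = 0.213). Cd36, a fatty acid transporter, was at 9.05, 4.7 and 32.6 RPKM in LF+Ex 1, 2 and 3 and at 31.4, 34.1 and 34.2 RPKM in HF+Ex 1, 2 and 3. LF+Ex 3 lay among the HF+Ex libraries and the other LF+Ex libraries below them (1.46 ± 0.50; adjusted p = 0.0977). Lpl, lipoprotein lipase, had a difference of 1.69 and did not pass.

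Of 22 genes of fatty acid synthesis 2 were called, where 5.13% of all genes were called in either direction. Mid1ip1, which activates acetyl-CoA carboxylase, was at 5.98, 8.41 and 3.85 RPKM in LF+Ex 1, 2 and 3 and at 12.5, 10.2 and 14.9 RPKM in HF+Ex 1, 2 and 3 (0.97 ± 0.22; adjusted p = 0.0244). Acsl3, an acyl-CoA synthetase of droplets, was the other, but its transcript was listed at 0 in all 3 LF+Ex libraries and with its RefSeq transcripts summed the difference was 0.17 (adjusted p = 0.597). Fasn, the fatty acid synthase, was at 14.3, 31.6 and 19.1 RPKM in LF+Ex 1, 2 and 3 and at 22.2, 39.6 and 55.8 RPKM in HF+Ex 1, 2 and 3 and Srebf1, the transcription factor above it, at 27.7, 53.4 and 14.6 RPKM in LF+Ex 1, 2 and 3 and at 50.7, 35.8 and 67.2 RPKM in HF+Ex 1, 2 and 3, and neither passed (0.81 and 0.81). Scd1, a desaturase, was at 1941, 1893 and 1609 RPKM in LF+Ex 1, 2 and 3 and at 351, 1847 and 1938 RPKM in HF+Ex 1, 2 and 3, with HF+Ex 1 far below the other 5 libraries (-0.74 ± 0.54; adjusted p = 0.439). None of 25 cholesterol genes passed, at a median of 0.30. Sqle, the squalene epoxidase of cholesterol synthesis, differed by 0.48 ± 0.46 (adjusted p = 0.576).

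In fatty acid oxidation and PPAR alpha targets 2 of 35 members rose and 2 fell, where 4.12% and 1.0% of all genes did, at a median of -0.02. Acot1, a cytosolic acyl-CoA thioesterase, was at 87.5, 27.8 and 47.6 RPKM in LF+Ex 1, 2 and 3 and at 8.16, 14.9 and 15.8 RPKM in HF+Ex 1, 2 and 3 (-1.89 ± 0.43; adjusted p = 0.0265). Cyp4a32, a fatty acid hydroxylase, was at 37.9, 30.7 and 32.5 RPKM in LF+Ex 1, 2 and 3 and at 13.7, 14.6 and 19.4 RPKM in HF+Ex 1, 2 and 3. The groups did not overlap (-1.05 ± 0.15; adjusted p = 0.00362). Hadh, a beta-oxidation dehydrogenase, rose from 182 ± 15.4 to 251 ± 19.6 RPKM, and Ucp2, a mitochondrial carrier that is also high in macrophages, rose from 5.92 ± 0.891 to 14.3 ± 0.14 RPKM. Cpt1a, which admits fatty acids to mitochondria, was at 189, 164 and 182 RPKM in LF+Ex 1, 2 and 3 and at 155, 213 and 207 RPKM in HF+Ex 1, 2 and 3 (0.09 ± 0.21; adjusted p = 0.838). Cyp4a14 and Fgf21 did not pass (-1.14 and 0.56).

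Of all genes 5.13% were called in either direction. Of 29 genes of gluconeogenesis and insulin response 1 was called, lower, at a median of -0.0066. This was Pck1, the entry enzyme of gluconeogenesis, at 1888, 1869.8 and 753 RPKM in LF+Ex 1, 2 and 3 and at 498, 502 and 505 RPKM in HF+Ex 1, 2 and 3. The HF+Ex libraries were within 10 RPKM of each other, and LF+Ex 3 was the nearest to them (-1.46 ± 0.34; adjusted p = 0.0265, and 0.00349 to 0.121 when 1 of the 6 libraries is left out). G6pc, which releases free glucose, was at 81.2, 44.4 and 72.8 RPKM in LF+Ex 1, 2 and 3 and at 59.4, 35.5 and 52.9 RPKM in HF+Ex 1, 2 and 3, with overlap (-0.40 ± 0.40; adjusted p = 0.59), and the coactivator Ppargc1a lay at -0.47 without passing. Tat, tyrosine aminotransferase, was at 398, 379 and 219 RPKM in LF+Ex 1, 2 and 3 and at 133, 175 and 140.1 RPKM in HF+Ex 1, 2 and 3 (-1.11 ± 0.22; adjusted p = 0.0186). Cps1, the first enzyme of the urea cycle, was at 648, 855 and 436 RPKM in LF+Ex 1, 2 and 3 and at 312, 306 and 378 RPKM in HF+Ex 1, 2 and 3 (-0.91 ± 0.19; adjusted p = 0.0189). These were the 2 called of 36 genes of amino acid catabolism, where 1.0% of all genes were called lower. The list had a median of -0.28, and 8 members were called without LF+Ex 3. Pfkfb3, which makes the activator of phosphofructokinase, was at 3.96, 7.46 and 1.82 RPKM in LF+Ex 1, 2 and 3 and at 0.101, 0.42 and 0.841 RPKM in HF+Ex 1, 2 and 3 (-1.79 ± 0.32; adjusted p = 0.0104). With its 8 RefSeq transcripts summed it did not pass (-0.84, adjusted p = 0.138).

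Bile acid genes had 1 call in 22, Slco1a1, where 5.13% of all genes were called in either direction. Cyp7a1, the rate-limiting enzyme of bile acid synthesis, was at 19.1, 17.2 and 13.8 RPKM in LF+Ex 1, 2 and 3 and at 23.1, 26.7 and 19.7 RPKM in HF+Ex 1, 2 and 3 (0.45 ± 0.50; adjusted p = 0.64), and Cyp8b1, which sets the share of cholic acid, was at 237, 72.1 and 295 RPKM in LF+Ex 1, 2 and 3 and at 125, 249 and 232 RPKM in HF+Ex 1, 2 and 3 (0.17 ± 0.48; adjusted p = 0.869). Xenobiotic genes rose for 4 of 47, against 4.12% of all genes: Cyp2c39, Ces1g, and Cyp2b9 and Cyp2b10, which also count in the list of female liver. Ces1g, a carboxylesterase, was at 36.5, 71.2 and 81.7 RPKM in LF+Ex 1, 2 and 3 and at 168, 113 and 124 RPKM in HF+Ex 1, 2 and 3 (1.14 ± 0.23; adjusted p = 0.0186), and Cyp2c39 rose from 0.779 ± 0.275 to 2.56 ± 0.896 RPKM. Cyp3a11, the main P450 induced through PXR, was at 187, 289 and 575 RPKM in LF+Ex 1, 2 and 3 and at 868, 628 and 787 RPKM in HF+Ex 1, 2 and 3 and did not pass (1.26 ± 0.56; adjusted p = 0.20). Of 73 oxidative phosphorylation genes Cox7a2 alone was called, lower (-0.43), at a median of -0.13, and none of 60 ribosomal protein genes, at -0.18. Few members had a positive difference, 12 of the 73 and 5 of the 60. Without overlap between the groups 25 of the 73 were lower in HF+Ex and 1 higher, and 6 of the 60 lower and 0 higher. Of all genes 6.67% were lower and 24.2% higher in that way. The first median was -0.23 with median-of-ratios scaling and -0.06 with quantile normalization. Mcm2 and Mcm3, subunits of the replicative helicase, rose from 0.692 ± 0.22 to 1.97 ± 0.289 RPKM and, for the second, from 0.927 ± 0.083 to 2.01 ± 0.0817 RPKM among 12 cell cycle genes. No member passed in the lists of endoplasmic reticulum stress (27 genes), heat-shock proteins (21), circadian clock (18), immediate early genes (14), chromatin modifiers (38) and microRNA processing (11).

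The diet difference under Ex was compared with that in mice without further treatment. HF against LF gave 42 calls (0.406%), 27 higher (0.261%) and 15 lower (0.145%). The count was 10, 4 and 8 without HF 1, 2 and 3 and 0 in limma without LF 1, where 1425 genes had an unadjusted p under 0.05. It was 204 with median-of-ratios scaling, 109 of them higher, and 269 with quantile normalization, 123 of them higher. Of the 427 genes higher under Ex, 18 were also called higher there, which is 4.22% of the 427 and 66.7% of the 27, and of the 104 lower genes 5 were, 4.81% and 33.3%, shares that rest on those 42 calls. The median difference of the 427 genes was 0.81 under Ex and 0.41 without, with 416 of the same sign, and that of the 104 was -0.75 and -0.35, with 94 of the same sign. Since the genes were picked for their difference under Ex, their larger medians there follow in part from that choice and are given as a description. These contrasts share no library, but they share the estimate of spread of 1 model. The interaction, the diet difference under Ex minus that without further treatment, called 0 genes in limma (0.00%), against 524 at an unadjusted p under 0.05. Cyp2b9 had an interaction of 4.30 ± 1.05 (adjusted p = 0.818), Serpina1e of -4.35 and Hsd3b5 of -4.32. The genes with the smallest p included Akr1b3 and Atp6v0c, which were called under Ex. Atp6v0c, a subunit of the vacuolar proton pump, was at 27.8, 17.6 and 19.4 RPKM in LF+Ex 1, 2 and 3 and at 41.9, 69.1 and 63.1 RPKM in HF+Ex 1, 2 and 3, and its interaction was 1.93 ± 0.42 (adjusted p = 0.696). Akr1b3, an aldose reductase, was listed at 0 in LF+Ex 1, 2 and 3 and at 2.98, 1.64 and 1.65 RPKM in HF+Ex.

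Against the diet difference under CR the pattern of sex-biased genes was opposite. HF+CR against LF+CR gave 1012 calls (9.77%), 487 higher (4.70%) and 525 lower (5.07%). The count was 482 and 613 without LF+CR 1 and 2, 430 and 639 without HF+CR 1 and 2, and 131 without the 3 pancreas libraries, and with totals made equal without the 10 most abundant genes 680 of 1153 were higher. Of the 427 genes higher under Ex 76 were higher under CR (17.8% of the 427, 15.6% of the 487) and 16 were lower, and of the 104 lower genes 21 were lower (20.2% and 4.0% of the 525) and 21 were higher. The median of the 427 genes was 0.35 under CR, and that of the 104 was -0.04. The test of the difference between the 2 diet contrasts called 247 genes (2.38%), 108 with the higher value under Ex (1.04%) and 139 with the lower (1.34%), against 1492 at an unadjusted p under 0.05. Of 21 female-biased genes 14 had a higher diet difference under Ex than under CR, and of 26 male-biased genes 21 a lower one. Without LF+Ex 1, HF+Ex 3, LF+CR 1 and HF+CR 1 in turn 137, 146, 162 and 131 genes passed, and without HF+CR 3 566.

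Cyp2b13 differed by 3.40 ± 0.40 under Ex and -4.85 ± 0.40 under CR, a gap of 8.25 ± 0.57 (adjusted p = 2.33e-06). Slco1a1 differed by -4.52 ± 0.80 and 5.29 ± 0.80 (-9.81 ± 1.13; adjusted p = 0.000206). For Serpina1e the values were -3.89 and 8.14 (-12.04 ± 1.37; adjusted p = 0.000206) and for Slc22a27 2.20 and -3.15 (5.34 ± 0.50; adjusted p = 3.94e-05). C8a, another chain of complement component 8, had the second smallest p. It was at 160.4 ± 22.2 RPKM in LF+Ex, 83.5 ± 20.3 in HF+Ex, 6.8 ± 3.19 in LF+CR and 171 ± 18.6 in HF+CR, so that the HF diet went with less under Ex and with more under CR (-5.52 ± 0.43; adjusted p = 7.01e-06). Cux2, under 0.1 RPKM in both Ex groups, was at 6.84 ± 2.21 RPKM in LF+CR (2.87 ± 0.25; adjusted p = 2.08e-05).

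Interferon-response genes were called higher for 21 members under Ex, 3 without further treatment and 13 under CR, where 4.12%, 0.261% and 4.70% of all genes were, with medians of 0.91, 0.69 and 0.61. No member had a higher diet difference under Ex than under CR by the test of the difference, and 1 had a lower one, Irf9, an interferon regulatory factor, named after its value was seen (-1.75; adjusted p = 0.0217). Gbp2 differed by 1.93 ± 0.30 under Ex, 1.32 ± 0.30 without further treatment and 0.47 ± 0.30 under CR (gap to CR 1.46 ± 0.43; adjusted p = 0.0945). H2-Eb1 had 1.93, 1.53 and 1.28. Orm3 had 3.33 ± 0.41, 2.67 ± 0.41 and 0.53 ± 0.41, and its gap to CR passed (2.80 ± 0.58; adjusted p = 0.0172). Saa1 had 2.74, 1.85 and 3.46, with a gap of -0.73 ± 0.85 (adjusted p = 0.746). Pck1 had -1.46, -0.69 and -1.61 (0.14 ± 0.48; adjusted p = 0.923). Across all 10357 genes the difference under Ex correlated at r = 0.579 with that without further treatment and at 0.0952 with that under CR, a description over genes, which are not independent.

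**Figure D5:**
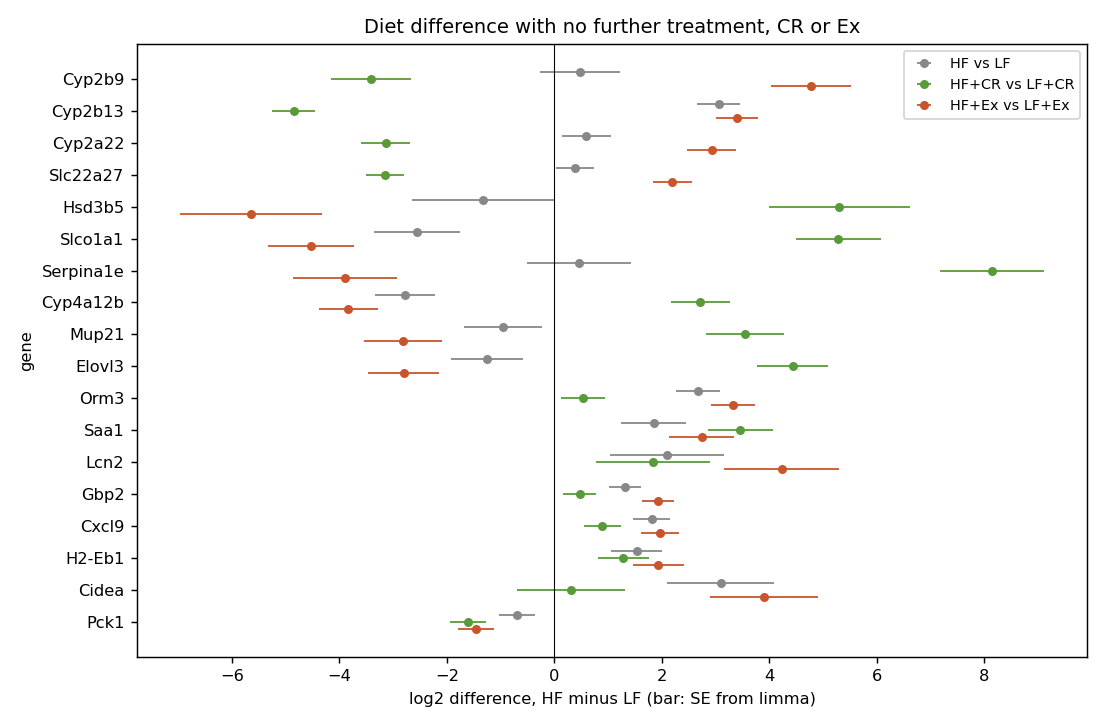
Diet difference (HF minus LF, log2 of RPKM + 1) of 18 genes without further treatment (grey), under CR (green) and under Ex (orange), with bars of 1 SE from limma. The 10 genes from Cyp2b9 to Elovl3 have orange and green points on opposite sides of 0, as for Cyp2b13 at 3.40 and -4.85, while Saa1, Gbp2, Cxcl9, H2-Eb1 and Pck1 have them on the same side.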

How the data were processed

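PolyA RNA of whole liver was sequenced in 18 libraries, and groups and replicate numbers come from the titles. The authors deposited RPKM for each RefSeq transcript. TopHat 1.4.1, Cufflinks 1.3.0 and the mm10 genome are named in the submitters' processing notes, and the annotation version and the read total behind the scaling are not given in the sources used here. The 550476 values of the per-sample and series-wide tables were equal. Of 30582 transcripts 29438 were named from a RefSeq table for GRCm38.p6, 179 from GENCODE, and 965 kept their identifier, giving 24040 genes. For the 3992 with more than 1 transcript the one with the highest mean stood for the gene.

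Genes with 1 RPKM or more in at least 3 of the 18 libraries were tested, 10357 without Alb. log2(RPKM + 1) was fitted with limma 3.58.1 in R 4.3.3 as 1 mean for each of 6 groups over all 18 libraries, with 12 residual degrees of freedom, an intensity trend, two-sided contrasts and Benjamini-Hochberg adjustment over all genes. Every adjusted p comes from limma, at a threshold of 0.05. The contrast was HF+Ex against LF+Ex, with 2 interactions, against the diet difference without further treatment and under CR.

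Named genes are the 12 largest differences in each direction among calls with separate groups and a group mean of 2 RPKM or more, predicted genes left out, up to 3 called members by smallest adjusted p of each of 26 lists, 31 genes given whatever their result, and for each interaction the 8 smallest adjusted p, or the 5 smallest p where none passes. Other list members that are given by value, and Lrat, were chosen after their values were seen. The members of the contrast, the lists and the 11 marker lists were chosen with earlier results of these data known. Alternatives were the pseudocount, the filter, scaling, the sum of transcripts, the trend, the libraries fitted, a replicate block and the libraries left out. A deposited 0 was used as it stands, although it could be an estimate that failed. Some genes of the rule and of the lists are not reported by name here, though the counts of the lists include them.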

Additional observations from a re-analysis of the deposited data

Results flagged for a closer look

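For 27 named genes the diet difference under Ex differed from that under CR by the test of the difference itself in limma, at adjusted p under 0.05. Values are the difference under Ex minus that under CR, on the log2(RPKM + 1) scale. Among genes higher in female mouse liver the value was 8.25 for Cyp2b13, 8.19 for Cyp2b9, 5.34 for Slc22a27, 3.90 for Cyp2b10, 3.86 for Slc22a26, 2.87 for Cux2 and 1.31 for Vldlr. The P450 genes Cyp2a22 and Cyp2c39 had 6.06 and 3.06. Among genes higher in male liver it was -12.0 for Serpina1e, -10.9 for Hsd3b5, -9.81 for Slco1a1, -8.83 for Mup7, -7.23 for Elovl3, -6.55 for Cyp4a12b, -6.36 for Mup21, -5.52 for C8a, -5.26 for Mup20, -4.74 for C6 and -4.39 for C8b. Outside these lists it was -3.32 for Serpina3k, -2.58 for Lifr, -2.31 for the coagulation factor F11, -1.96 for the beta-3 adrenergic receptor Adrb3, -1.81 for Cyp4a32, 2.80 for Orm3 and 1.43 for Postn. LF+CR 1, HF+CR 1 and LF+Ex 1 are the 3 libraries with the highest sums of exocrine pancreas markers, and without them 64 of all genes passed this test, against 247 with them. Their part in these values was not tested.

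Alb was listed at 0 in LF+Ex 1, 2 and 3 and at 30803 RPKM or more in each HF+Ex library, and is flagged because it lies outside the genes tested. It was also at 30395 RPKM in HF 1 and at 0 in 14 libraries in all, the LF+Ex libraries among them. HF 1 and the HF+Ex libraries are also those in which the 10 most abundant transcripts took the largest share of the RPKM sum, 27.2% to 29.4%. Alb is counted in these shares, so this is not a separate observation.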

How the results depend on the processing

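The 531 calls of HF+Ex against LF+Ex became 209 with a mean of at least 5 RPKM required, 871 with the libraries of the comparison alone, 1051 with totals made equal without the 10 most abundant genes, 33 with the 3 pancreas libraries left out and 1112 with the 2 bile duct libraries left out. Leaving out 1 library at a time gave 46 to 844. The interaction with the diet difference without further treatment called 1 gene with the libraries of the comparison alone and 1 without the pancreas libraries, and 0 in every other alternative. The 247 calls of the diet difference under Ex against CR became 64 and 759 without the pancreas and the bile duct libraries, and 131 to 566 without 1 library at a time. The deviations of same-numbered LF+Ex and HF+Ex libraries from their group means correlated at -0.0603, -0.0915 and -0.0658. Unlike-numbered libraries were not set beside them, so these values cannot show whether a replicate number marks a shared batch. The 3 pancreas libraries all carry replicate number 1. A replicate block gave 454, 0 and 215 calls. For HF against LF it gave 14 calls against 42. That count was 21 with a pseudocount of 0.1, 14 with a mean of at least 5 RPKM, 96 with equal totals, 204 and 269 with median-of-ratios and quantile scaling, and 12 and 140 without the pancreas and the bile duct libraries, and leaving out 1 library at a time gave 0 to 91. For HF+CR against LF+CR the block gave 963 against 1012, the pancreas libraries left out gave 131, and leaving out 1 library at a time gave 430 to 1232.

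Of the 59 named genes called, none changed direction under any of the 30 alternatives, with 1435 outcomes on the same side of the threshold and 313 that lost it, most of them with a library left out. Many alternatives could not change a direction. Leaving out libraries of other groups, dropping the trend, fitting the comparison alone or adding the block alters the spread but not the difference. Among the 27 not called, 20 outcomes passed and 13 changed sign. With 1 library left out at a time Scd1 ranged from -1.17 to 0.066, Cyp8b1 from -0.45 to 0.56, Fgf21 from -0.14 to 1.29, Cux2 from -0.057 to 0.0056, Dbp from -0.24 to 1.05 and Ppp2r5c from -0.094 to 0.096. Without the pancreas libraries Cux2 was at 0.0056 and Ppp2r5c at 0.096, Ppp2r5c was at 0.046 with equal totals, and Cpt1a was at -0.0067 with median-of-ratios scaling. Why these signs changed was not tested. Depth is unknown, which limits what can be said of genes below 1 RPKM.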

Other observations

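Several genes varied more within LF+Ex than between the groups. Dbp, an output gene of the circadian clock, was at 63.5, 95.1 and 15.2 RPKM in LF+Ex 1, 2 and 3 and at 60.3, 70.3 and 67.6 RPKM in HF+Ex 1, 2 and 3. LF+Ex 3 was the low library, and its clock list averaged -0.69 against 0.18 and 0.36 in LF+Ex 1 and 2 and 0.00 to 0.15 in HF+Ex. Per2, a clock repressor, was at 5.88, 6.41 and 2.48 RPKM in LF+Ex 1, 2 and 3 and at 7.87, 8.76 and 6.42 RPKM in HF+Ex 1, 2 and 3, also lowest in LF+Ex 3. Neither gene was called (0.53 ± 0.74 and 0.62 ± 0.39). Hamp, hepcidin, was at 9064, 8817 and 2851 RPKM in LF+Ex 1, 2 and 3 and at 6261, 3715 and 5235 RPKM in HF+Ex 1, 2 and 3.

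Sprr1a, a small proline-rich protein of epithelia, was at 0, 0 and 0.585 RPKM in LF+Ex 1, 2 and 3 and at 5.23, 9.34 and 2.31 RPKM in HF+Ex 1, 2 and 3 (2.36 ± 0.54; adjusted p = 0.0258). Zmym5, a zinc finger gene, was called lower with its most abundant transcript at 3.53, 4.12 and 3.92 RPKM in LF+Ex 1, 2 and 3 and at 0, 2.58 and 0 RPKM in HF+Ex 1, 2 and 3, and with its 3 RefSeq transcripts summed its difference was -0.05 (adjusted p = 0.847). Some antioxidant and glutathione genes, picked for their size, had large differences without passing, with Gstm3 at 2.88, Gsta1 at 2.47, Nqo1 at 1.54 and Srxn1 at 1.35. They are not typical of the xenobiotic list that holds them. It had a median of 0.24, with 31 of 47 members positive and a range of -1.30 to 4.78.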
